A study of Homo sapiens with 7 samples.

Results

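VRK1 is a nuclear serine/threonine kinase that phosphorylates histones and the chromatin-tethering factor BAF, and threonine T120 of histone H2A is among its substrates. T120 lies next to lysine K119, which the Polycomb repressive complex PRC1 ubiquitylates, a mark known from silenced genes. Of the 17531 regions called as peaks with an antibody against VRK1, 9909 overlapped no peak of any other library by as little as 1 bp, and these VRK1 peaks without a peak of either H2A mark or of input DNA are described here. They made up 56.5% (55.8 to 57.3) of the VRK1 peaks, and covered 2.37 of the 5.93 Mb in the VRK1 list. The whole series held 148917 peaks in 7 lists.

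All chromatin came from HT1080, a human fibrosarcoma cell line, transfected with small interfering RNA against human VRK1 (siVRK1) or with a non-targeting RNA (siControl). Immunoprecipitation with sequencing gave 5 antibody libraries: VRK1 in siControl cells, and H2A phosphorylated at T120 (pT120) and H2A ubiquitylated at K119 (ubK119) in siVRK1 and in siControl cells. Input DNA was sequenced under both siRNAs. VRK1 was profiled in siControl cells alone, so the loss of VRK1 after siVRK1 is not checked by these data, and each condition is 1 library.

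Library totals lay between 20687398 reads (siControl pT120) and 40442651 reads (siControl ubK119), with 32040478 reads for VRK1. The peak height is the authors' own value, the most extended reads that any window within the peak held. The lists started at heights between 12 and 18 reads, and the VRK1 list and the siVRK1 input list both started at 14. Levels are reads of a library in the region, scaled to the library total (RPM), and a count of 3 reads corresponded to 0.0742 to 0.145 RPM. Intervals are given at 95% and cover at most counting error. They treat reads as independent molecules, which reads after PCR are not. No difference has a replicate check, and no test between conditions was made.

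The members were chosen by measured values, since a region had to reach the height minimum with the VRK1 antibody and to miss it in each other library. A higher level of VRK1 than of the other libraries is thus built into the choice, and the levels below are a description of it. In RPM, the members had a median of 0.468 with the VRK1 antibody (lowest 0.0312, highest 1.65). The pT120 medians were 0.0833 in siVRK1 cells (0 to 0.527) and 0.193 in siControl cells (0 to 1.35). The ubK119 medians were 0.234 in siVRK1 cells (0 to 1.17) and 0.148 in siControl cells (0 to 0.643). VRK1 was the highest of the 7 medians and siVRK1 pT120 the lowest, while the input medians of 0.210 RPM in siVRK1 and 0.186 RPM in siControl cells lay between the marks. The ranges of all 7 libraries overlapped.

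**Figure D1:**
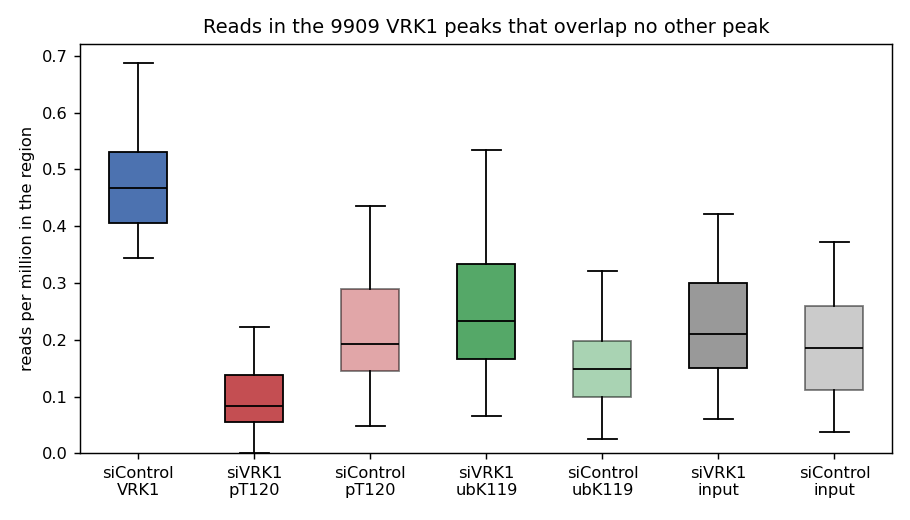
RPM in each of the 9909 VRK1 peaks that overlap no peak of another list, by library; boxes show the quartiles and the median, and whiskers the 5th and 95th percentiles. The VRK1 median of 0.468 RPM stands above the others, and siVRK1 pT120, at 0.0833 RPM, is the lowest.

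The absence of a peak was not an absence of reads of the marks. Summed over the members, pT120 in siControl cells came to 2149 RPM and the input of those cells to 1886 RPM, a ratio of 1.14 (1.13 to 1.15). For ubK119 in siControl cells that ratio was 0.803 (0.794 to 0.813). In siControl cells 239 members (2.41%) had 0 pT120 reads, and 143 (1.44%) had 0 ubK119 reads. Of all VRK1 peaks, 1.56% and 0.901% had 0 reads of these. The siControl input, made without an antibody, had 0 reads in 204 members (2.06%), so reads alone do not show that a mark was present. At the other end, 548 members (5.53%) held at least as many reads of a mark as the lowest height in that mark's list, without being called there. Over all 6 other libraries this was so for 984 members (9.93%). The members are therefore regions without a called peak of the marks, rather than regions shown to lack the marks.

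Most members stood at the lower edge of the VRK1 list. Their median height was 14 reads, the list minimum, and their median length was 212 bp. At that minimum lay 5295 of them (53.4%), where 40.1% of all VRK1 peaks lay. The VRK1 peaks that overlapped another list had a median height of 16 reads and a median length of 312 bp. A height of 18 reads or more was reached by 384 members (3.88%, 3.50 to 4.27) and by 3083 of the 7622 other VRK1 peaks (40.4%, 39.3 to 41.6). A height of 25 reads or more was reached by 2 members and 1267 other VRK1 peaks. The shortest length listed, 200 bp, was that of 4064 members (41.0%) and of 30.2% of all VRK1 peaks. A length of 500 bp or more was that of 53 members (0.535%) and of 9.89% of all VRK1 peaks. Longer regions have more room to overlap another peak, which favours short members.

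The same rule was applied to the other lists to see what it yields in a list, also where no antibody was used. Of the pT120 peaks, it left 37.6% in siControl and 85.8% in siVRK1 cells without a partner in any other list. For ubK119 the shares were 71.1% in siControl and 58.3% in siVRK1 cells, so the share varied widely between antibody lists. The inputs are described further. The rule left 13303 of the 21507 siVRK1 input peaks (61.9%, 61.2 to 62.5) and 10907 of the 17980 siControl input peaks (60.7%, 59.9 to 61.4). Both shares were above that of VRK1. With 18 or more reads required in every list, the share was 19.9% for VRK1, below the 27.8% of the siVRK1 input but above the 6.47% of the siControl input, which turns the order against the siControl input. The siVRK1 input peaks so chosen had a median height of 14 reads and a median length of 214 bp. At 18 reads or more, 384 VRK1 peaks stood beside 634 siVRK1 input peaks, and at 25 reads or more 2 beside 7. Against the siControl input, the input of the same siRNA but of 26893384 reads and with a list that started at 12 reads, the order was the reverse. At 18 reads or more 384 VRK1 peaks stood beside 48 of that list, and at 20 reads or more 75 beside 13. The VRK1 numbers thus lay between those of the 2 inputs up to a height of 24 reads.

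**Figure D2:**
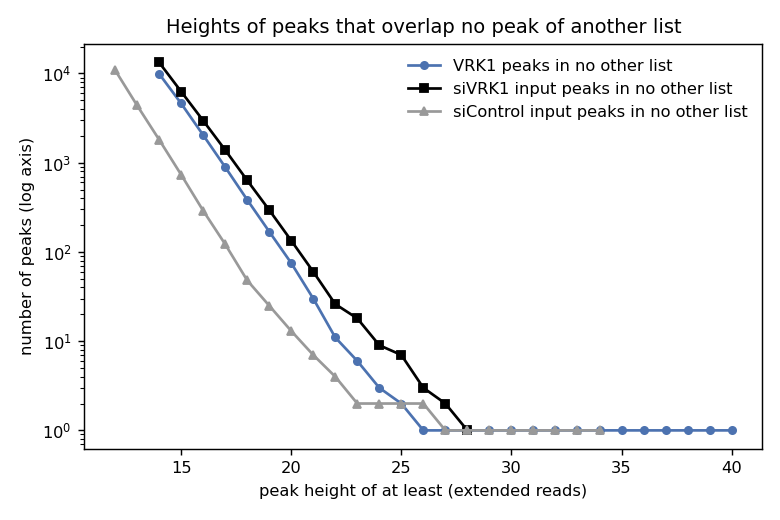
Number of peaks that overlap no peak of another list (log axis) with at least the height on the x axis, in extended reads, for the VRK1 list and both input lists. From 14 to 27 reads the VRK1 curve runs below that of the siVRK1 input, and only a single VRK1 peak, of 40 reads, lies beyond the highest input peaks of 28 reads in siVRK1 and 34 reads in siControl cells.

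The chosen library exceeded either input, or the other input, by more than 2-fold in the members and in both sets of input peaks. In the members the VRK1 antibody gave 2.51 times (2.49 to 2.54) the RPM of the siControl input and 2.12 times (2.11 to 2.14) that of the siVRK1 input. In the siVRK1 input peaks chosen by the rule, the siVRK1 input stood at 2.24 times (2.22 to 2.26) the siControl input. In the siControl input peaks so chosen, that input stood at 2.31 times (2.29 to 2.33) the siVRK1 input. The authors' caller gave a p-value under 0.05 to 1688 members (17.035%, 16.3 to 17.8), where 19.3% of all VRK1 peaks (18.8 to 19.9) had one. Among the input peaks chosen by the rule it did so for 2276 in the siVRK1 input (17.1%, 16.5 to 17.8) and for 1675 in the siControl input (15.4%, 14.7 to 16.0). Of the members, 6714 of the 9890 with 10 or more reads in both libraries together had at least 2 times the RPM of the siControl input, or 67.9%, where 49.1 percent of all VRK1 peaks did, and 0 had 0.5 times or less, where 0.166 percent did. Because the rule used both lists, nothing is read from this count.

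After siVRK1 the level of pT120 in the members was lower, at 972 RPM against 2149 RPM in siControl cells, a ratio of 0.452 (0.446 to 0.458). The rule bears on this ratio, because both pT120 lists started at 12 reads, or 0.333 RPM in siVRK1 and 0.580 RPM in siControl cells, so that a member could hold more siControl than siVRK1 pT120 without a peak. How much of the ratio comes from these unequal limits was not tested. Ratios lay below 1 on 24 of 24 chromosomes, with the interval below 1 on 23. Among the 19 chromosomes with 100 or more members, chromosome 17 had the lowest ratio, 0.364 (0.340 to 0.391), and chromosome 18 the highest, 0.521 (0.480 to 0.564). Of the 2967 members with 10 or more pT120 reads, 1640 (55.3%) were lower by 2-fold or more after siVRK1, where 44.0 percent of all VRK1 peaks were. Higher by 2-fold or more were 38 (1.28%), against 1.86 percent of all VRK1 peaks.

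The pT120 ratio was also below 1 in peaks of input DNA, by an amount that differed between the inputs. In the siVRK1 input peaks chosen by the rule it was 0.464 (0.459 to 0.470), near that of the members, and in the siControl input peaks 0.644 (0.635 to 0.652), well above it. VRK1 peaks with a mark peak but no input peak, 1580 in number, had 0.505 (0.492 to 0.519), and the 1786 VRK1 peaks with an input peak but no mark peak had 0.439 (0.427 to 0.452). All VRK1 peaks that overlapped another list had 0.738 (0.735 to 0.742), those with a siControl pT120 peak 0.752 (0.748 to 0.756), and those with a siControl ubK119 peak but no siControl pT120 peak 0.786 (0.770 to 0.802). The ratio was thus lower in the members than in the VRK1 peaks that shared a place with siControl mark peaks, which were chosen for their siControl reads. A pT120 ratio below 1 was thus also found in peaks called without the VRK1 antibody. By the rule, those input peaks overlap no pT120 peak, under the same unequal limits as the members. Whether the lower pT120 reads depend on VRK1 was not tested. When each library was scaled to its own reads in regions called in input DNA, the ratio in the members was 0.645, and 0.749 with such regions of at most 100 input reads. Both stay below 1, and the size of the ratio depends on this choice of scale.

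**Figure D3:**
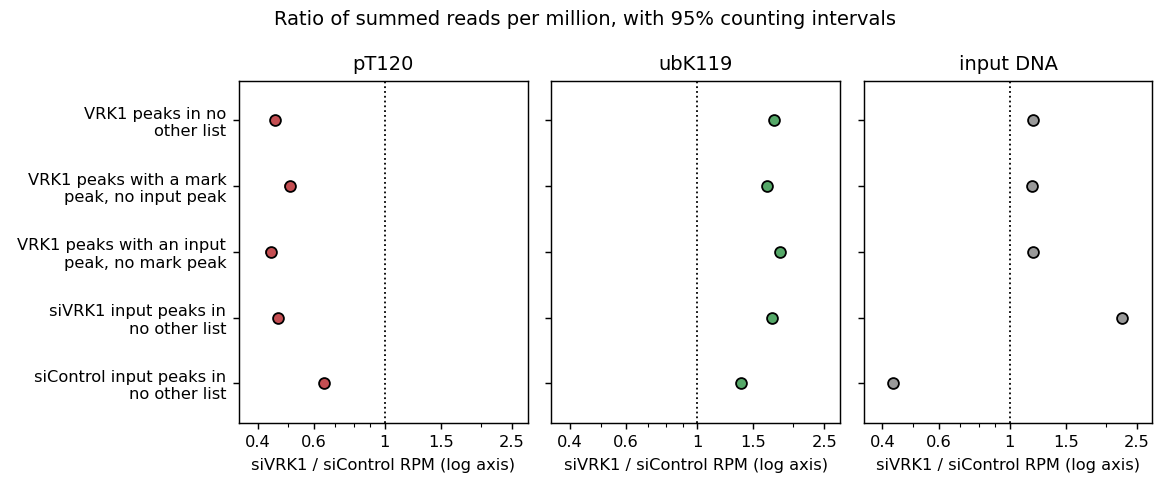
Ratio of summed RPM in siVRK1 over siControl cells (log axis) for pT120, ubK119 and input DNA, in the VRK1 peaks that overlap no other list and in 4 other sets of peaks; lines are 95% counting intervals, mostly narrower than the points. For pT120 and ubK119 the first set, at 0.452 and 1.74, lies close to the siVRK1 input peaks, at 0.464 and 1.71, and apart from the siControl input peaks, at 0.644 and 1.37.

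The ubiquitin mark moved the other way. Summed over the members, ubK119 was 2629 RPM in siVRK1 and 1514 RPM in siControl cells, a ratio of 1.74 (1.72 to 1.75). Here the list minimums were unequal in the other direction, at 0.6005 RPM in siVRK1 and 0.371 RPM in siControl cells, and their part in the ratio was not tested. The ratio was above 1 on 24 of 24 chromosomes, and among those with 100 or more members chromosome 18 had the lowest, 1.48 (1.39 to 1.58), and chromosome 21 the highest, 2.09 (1.89 to 2.31). Of the 7461 members with 10 or more ubK119 reads, 2953 (39.6%) were higher by 2-fold or more, where 34.4 percent of all VRK1 peaks were, and 204 (2.73%) were lower, where 3.06 percent were. The siVRK1 input peaks chosen by the rule had a ubK119 ratio of 1.71 (1.69 to 1.72), and the siControl input peaks 1.37 (1.36 to 1.39). Scaled to reads in input regions, the ratio in the members was 1.21.

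Input DNA itself differed between the siRNAs in the members, at 2230 RPM in siVRK1 and 1886 RPM in siControl cells, a ratio of 1.18 (1.17 to 1.20). Summed over all VRK1 peaks the ratio was 1.001 (0.997 to 1.005), and over those that overlapped another list 0.981 (0.977 to 0.985). It was 1.18 (1.15 to 1.21) in VRK1 peaks with a mark peak but no input peak. With an input peak but no mark peak it was 1.19 (1.16 to 1.21). Of the 6943 members with 10 or more input reads, 1058 (15.2%) were higher in the siVRK1 input by 2-fold or more, where 13.2 percent of all VRK1 peaks were. Lower by 2-fold or more were 387 (5.57%), where 4.66 percent were. Over the input of the same siRNA, pT120 stood at 0.436 (0.430 to 0.441) times in siVRK1 and 1.14 times in siControl cells. For ubK119 the levels over input were 1.18 (1.17 to 1.19) times in siVRK1 and 0.803 (0.794 to 0.813) times in siControl cells. With libraries scaled to reads in input regions, siControl ubK119 came to 1.30 times its input, which turns the direction. With such regions limited to 100 input reads, siVRK1 pT120 came to 1.06 times its input, which turns it as well.

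VRK1 peaks that carried a mark peak outside input peaks had more of both marks than the members. There siControl pT120 stood at 1.47 times (1.43 to 1.51) and siControl ubK119 at 1.35 times (1.32 to 1.38) the siControl input, a level of the marks that follows from their choice. VRK1 stood at 2.29 times (2.24 to 2.35) the siControl input, below the 2.51 times of the members. In VRK1 peaks with an input peak and no mark peak, VRK1 stood at 1.499 times (1.47 to 1.53) that input.

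Among the members, the pT120 ratio was lower for heights of 18 to 24 reads than for 14 to 17 reads. In the 2 members of 25 reads or more it was 0.670 (0.193 to 2.41), from 7 siVRK1 and 6 siControl reads. The pT120 ratio was 0.454 (0.448 to 0.461) for heights of 14 to 17 reads and 0.416 (0.391 to 0.441) for 18 to 24 reads, and VRK1 stood at 2.505 (2.48 to 2.53) and 2.62 (2.51 to 2.74) times the siControl input. For ubK119 the ratios were 1.73 (1.72 to 1.75) and 1.77 (1.70 to 1.86), with intervals that overlapped, as did those of VRK1 over input. VRK1 over input differed more by distance to other peaks. Those peaks include siControl input and siControl ubK119 peaks, so the distance classes are not independent of the reads compared in them. VRK1 stood at 2.31 (2.27 to 2.35) times the siControl input in members less than 1 kb from a peak of another list, at 2.497 (2.46 to 2.53) times from 1 to 10 kb and at 2.79 (2.73 to 2.84) times from 10 to 100 kb. The level of ubK119 over input in siControl cells was lower along the same classes, at 0.850, 0.804 and 0.746 times. In the 126 members more than 100 kb from such a peak VRK1 stood at 3.04 times (2.75 to 3.35) and ubK119 at 0.639 times (0.563 to 0.725) the siControl input. The pT120 ratio had no such order, at 0.460, 0.461, 0.423 and 0.464 from the nearest to the farthest class.

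The rule has its edge at an overlap of 1 bp. Within 100 bp of another peak but outside it lay 439 members, with a median height of 14 reads and medians of 15 VRK1, 5 siControl pT120, 7 siControl ubK119 and 6 siControl input reads. The 730 VRK1 peaks with an overlap of at most 100 bp had a median height of 15 reads and medians of 15, 5, 8 and 7 reads in the same libraries. Values on both sides of the edge were nearly alike. The 3 members nearest to another peak, on chromosomes 3 (164196260 to 164196469 and 194291409 to 194291609) and 6 (39270589 to 39270952), adjoined it with no gap and had 12, 15 and 20 VRK1 reads. The 3 peaks with the shortest overlap, 1 bp, lay on chromosomes 1 (10858565 to 10858864 and 144994085 to 144994311) and 3 (128881257 to 128881610), with 20, 14 and 23 VRK1 reads.

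The member with the highest peak stood apart from all others. It lay on chromosome 17 from 43225892 to 43226376, had a height of 40 reads and held 53 VRK1 reads. There pT120 had 2 reads in siVRK1 and 2 in siControl cells, ubK119 had 6 and 4, and the inputs had 21 and 8. VRK1 stood at 5.56 times (2.63 to 13.5) the siControl input but at 2.62 times (1.55 to 4.57) the siVRK1 input. It was thus high with the VRK1 antibody and low for both marks, with more reads in the siVRK1 than in the siControl input. Its nearest peak of another list was 20898 bp away. No annotation of the build of these positions, hg19, was used here, and the regions are given without gene names.

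The next highest member, on chromosome 2 from 845039 to 845687, had a height of 25 reads and was high over both inputs. It held 43 VRK1 reads, against 5 and 4 pT120 reads, 14 and 10 ubK119 reads and 6 and 7 input reads in siVRK1 and siControl cells. VRK1 stood at 7.44 times (3.15 to 21.4) the siVRK1 input and 5.16 times (2.30 to 13.6) the siControl input. These lower bounds are the highest over both inputs among the 10 highest members, taking for each member the lower of its bounds.

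On chromosome 17 from 79829304 to 79829821, a member of height 22 had 41 VRK1 reads. Its pT120 reads were 4 in siVRK1 and 14 in siControl cells, its ubK119 reads 8 and 0, and its input reads 21 and 4. VRK1 was 8.60 times (3.12 to 33.1) the siControl input and 2.03 times (1.17 to 3.61) the siVRK1 input, so the excess depended on the input used. This was also so on chromosome 12 from 6982609 to 6983104, which has the third largest difference between VRK1 and siControl input RPM. It held 37 VRK1 reads, 0 and 11 pT120 reads, 8 and 8 ubK119 reads, and 13 and 1 input reads in siVRK1 and siControl cells. VRK1 there was 2.95 times (1.53 to 6.06) the siVRK1 input and 31.1 times (5.24 to 1259) the siControl input. A choice by the difference from the siControl input favours regions in which that input is low.

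The other members among the 10 highest had heights of 22 to 24 reads. On chromosome 13 (31366340 to 31366741) 28 VRK1 reads stood beside 15 siVRK1 and 9 siControl input reads. On chromosome 12 (3280805 to 3281242) 32 VRK1 reads stood beside 12 and 8 input reads, and on chromosome 10 (79391624 to 79392252) 46 stood beside 30 and 20. On chromosome 3 (64337452 to 64337857) there were 29 VRK1 reads and 17 and 14 input reads, and VRK1 over either input had an interval that included 1. The 3 on chromosome 5, from 6431015 to 6431438, from 9907761 to 9908155 and from 130970554 to 130971020, had 32, 29 and 33 VRK1 reads. Their input reads were 10 in siVRK1 and 15 in siControl cells in the first, 14 and 10 in the next, and 18 and 10 in the last. Over the siControl input the interval lay above 1 in 8 of the 10 members, and over the siVRK1 input also in 8. These 10 were ranked by VRK1 height among regions without an input peak. A high VRK1 level over input is thus built into their choice, and nothing is read from these counts.

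For pT120 the ratio of siVRK1 to siControl was below 1 in 10 of these 10 members, with the interval below 1 in 3. The lowest ratios were 0.164 (0.0393 to 0.522) in the second region of chromosome 17 and 0.172 (0.0305 to 0.669) in the first of chromosome 5. For ubK119 siVRK1 was higher in 9 of the 10, with the interval above 1 in 5, the exception being chromosome 3 with 4 and 7 reads. With so few reads per region, most of these differences are within counting error. Summed over all VRK1 peaks, the ratios went the same ways, at 0.704 for pT120 and 1.45 for ubK119. Those are sums and not counts of regions. The share of all VRK1 peaks with such ratios or intervals is not given here, so nothing particular to these 10 members is read from the counts.

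The longest members were not the highest. That on chromosome 3 from 174661945 to 174662765, of 820 bp, had a height of 15 reads. It held 47 VRK1 reads, 10 and 28 pT120 reads, 28 and 14 ubK119 reads, and 28 and 23 input reads in siVRK1 and siControl cells. Its pT120 ratio was 0.205 (0.0889 to 0.435) and its ubK119 ratio 2.70 (1.37 to 5.55). Those on chromosome 5 (13381436 to 13382198) and chromosome 18 (7414746 to 7415420) had 49 and 41 VRK1 reads, and pT120 ratios of 0.287 (0.106 to 0.711) and 0.519 (0.264 to 1.02). Their ubK119 ratios were 0.956 (0.482 to 1.85) and 1.40 (0.787 to 2.499), with intervals that included 1. The 28 siControl pT120 reads of the first were the most of any member, and no pT120 peak was called there.

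Members were unevenly spread over the chromosomes, and differently from the other VRK1 peaks. Their share among VRK1 peaks was highest on chromosomes 14 (78.0%, 73.2 to 82.3), 13 (76.9%, 74.0 to 79.6) and 11 (75.3%, 71.8 to 78.6). It was lowest on chromosome X, with 2 of 74 peaks (2.70%, 0.329 to 9.42), on chromosome Y, with 10 of 234 (4.27%, 2.07 to 7.72), and on chromosome 18, with 220 of 2252 (9.77%, 8.57 to 11.1). Chromosome 18 had 2.82 members per Mb, in the middle of the range of the chromosomes, but 26.0 other VRK1 peaks per Mb. Its low share thus came with many shared peaks rather than with few members.

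**Figure D4:**
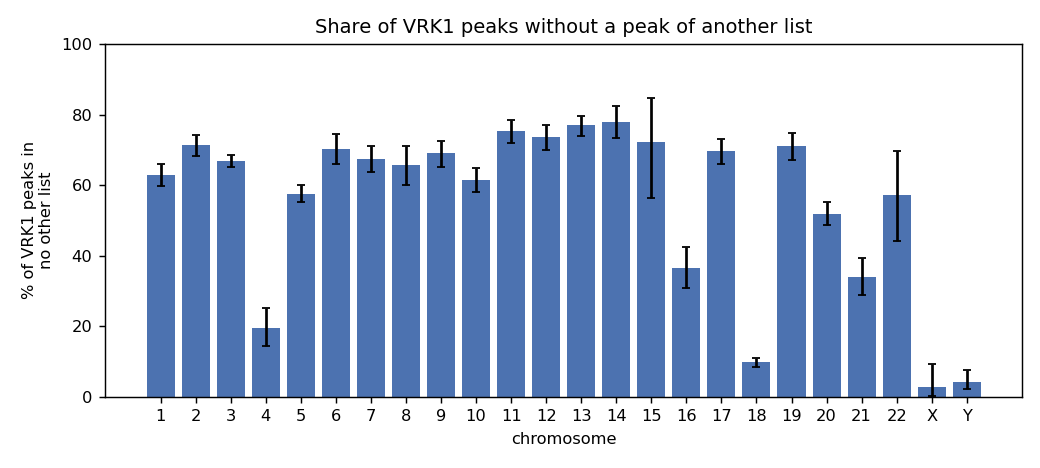
Percent of the VRK1 peaks of each chromosome that overlap no peak of another list; bars start at 0 and error bars are exact 95% binomial intervals. Chromosomes X, Y and 18 have the lowest shares, 2.70%, 4.27% and 9.77%.

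By number, chromosome 3 alone held 1967 members, or 19.9% of all, and 9.94 members per Mb up to its last peak. Chromosomes 20 and 19 followed with 7.63 and 6.92 members per Mb, and chromosome X had 0.0143. The density of members followed that of the siVRK1 input peaks chosen by the same rule, with a Spearman rho of 0.977 and a Pearson r of 0.988 over 24 chromosomes. Against the siControl input peaks so chosen, rho was 0.906 and r 0.869, and against the other VRK1 peaks 0.590 and 0.181. Chromosomes share copy number, mappability and gene content between the lists, so these values only describe the spread. Chromosomes 17 and 19 show the difference between the inputs: chromosome 19 had 6.92 members per Mb, beside 7.61 siVRK1 input peaks and 2.72 siControl input peaks, and chromosome 17 had 5.80, beside 6.44 and 3.49.

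**Figure D5:**
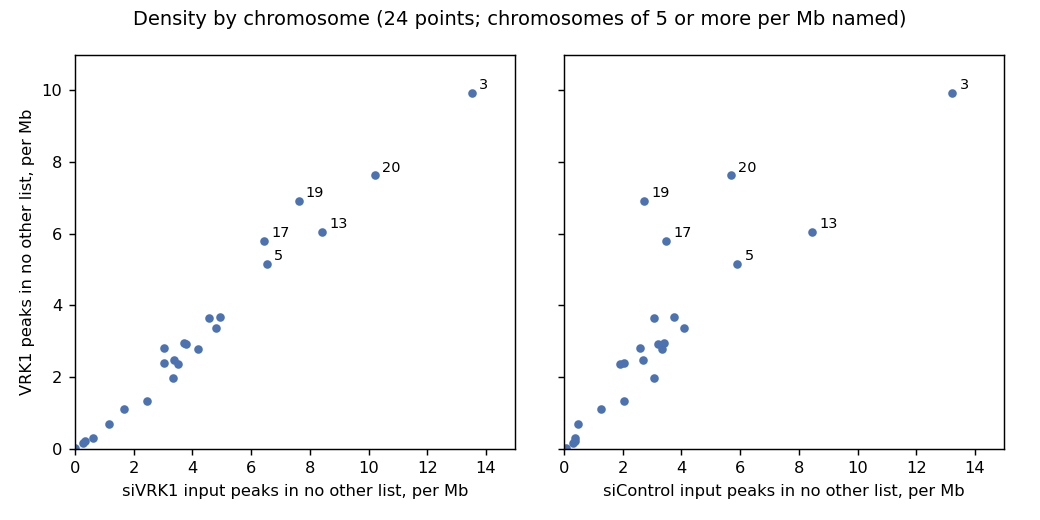
VRK1 peaks that overlap no other list, per Mb, against input peaks chosen by the same rule, per Mb, with the siVRK1 input on the left and the siControl input on the right; each point is a chromosome. The points lie closer to a line on the left (r of 0.988) than on the right (r of 0.869), where chromosomes 17, 19 and 20 stand high.

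Within chromosomes, 72 windows of 1 Mb held 20 or more members each, and together 2371 members (23.9%). Of these windows 29 lay on chromosome 3, 12 on chromosome 5 and 7 on chromosome 20. The fullest ran from 194 to 195 Mb of chromosome 3, with 78 members of 125 VRK1 peaks, beside 99 siVRK1 and 41 siControl input peaks chosen by the rule. It was followed by 126 to 127 Mb of chromosome 3, with 70 of 123, beside 78 and 17, and by 10 to 11 Mb of chromosome 5, with 64 of 108, beside 73 and 50. In these 3 windows members had 6.71, 5.70 and 6.42 siControl input reads on average. The pT120 ratio in the 72 windows was 0.468 (0.456 to 0.480), against 0.446 (0.438 to 0.453) in the other members. VRK1 stood at 2.23 times (2.19 to 2.28) the siControl input in them, against 2.62 times (2.59 to 2.65) elsewhere. The windows with most members thus had a lower VRK1 level over input, and the part of local DNA copy number in their numbers was not tested.

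A smaller share of members than of the other VRK1 peaks lay beside the longest peak-free stretch of each chromosome. How much of each chromosome lies in such places was not computed, so the shares are compared between sets only. Within 2 Mb of the longest stretch of a chromosome that held no peak of any list lay 272 members (2.74%, 2.43 to 3.09). Of the other VRK1 peaks 1969 (25.8%, 24.9 to 26.8) lay there, and of the siVRK1 input peaks chosen by the rule 2.58% (2.32 to 2.86). Within 2 Mb of the outermost peaks of a chromosome lay 655 members (6.61%, 6.13 to 7.12), against 990 other VRK1 peaks (12.99%, 12.2 to 13.8) and 5.53% (5.14 to 5.93) of those siVRK1 input peaks. Of the siControl input peaks chosen by the rule, 2.48% (2.19 to 2.78) lay beside the peak-free stretch and 3.21% (2.89 to 3.56) near the outermost peaks. Gaps to other peaks are given for the members only, so they are not compared with those of other sets. The median gap to the nearest peak of another list was 3.35 kb, and 7212 members (72.8%) had such a peak within 10 kb. Members had another member within 10 kb in 2862 cases (28.9%), and the median gap from a member to the nearest other member was 28.7 kb.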

How the data were processed

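Sample titles put each of the 7 libraries in a group of its own. Tools listed in the submitters' processing notes, with no role stated, are Bowtie 0.12.8, CASAVA 1.8.2 and Partek, and the build is hg19. How peaks were called, duplicates handled or input used was not given in the sources used here. Per the file headers, each list gives the peak length in bp, the height (a signal, in extended reads), the height as RPM, a p-value of the caller, the read count of all 7 libraries in the region, not normalized, and the percent of it covered by peaks of each library. Positions are printed as the authors deposited them, and no header says which number the first base has. No genome of this build was used, so no sequences or gene names are printed.

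Overlap of 1 bp was computed from positions and differed from the deposited percent in 0 cases. Library totals came from height divided by RPM and are known to within 14.7 reads. Heights use extended reads, so a deposited count may be smaller than the height, which held for 3785 members (38.2%). Ratios of summed RPM have exact conditional binomial intervals and shares have Clopper-Pearson intervals, both at 95%. With 1 library per condition no p-value was computed. Fold counts used 0.5 reads added to each count, a 2-fold limit and 10 or more reads in both libraries together. The members and all rules were chosen with earlier results of these data known. Named regions are the 10 highest members with a VRK1 count of at least 0.5 of the height, the 3 longest, the 3 with the largest VRK1 minus siControl input RPM, and those nearest the edge of the rule. Windows and chromosomes are the 3 fullest windows and the 3 highest and 3 lowest shares. Other windows and chromosomes named beside them were chosen after their values were seen. Chromosome 8 was left out of the naming, and 0 of its members reached the heights named.

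The computation of the intervals was checked on simulated data, with Poisson reads for both pT120 libraries in 9909 members. True ratios of 0.5, 1 and 1.5 fell inside 95.5%, 95% and 96.5% of the intervals over 200 draws. The reads were drawn from the model that the intervals assume. These shares therefore say nothing about PCR copies, the choice of members or differences between libraries in the real counts. Computations used Python 3.11.15, pandas 2.3.3, NumPy 2.4.6 and SciPy 1.17.1. Alternatives tried were other overlap distances, height minimums, scales and subsets of members.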

Additional observations from a re-analysis of the deposited data

How the results depend on the processing

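No paired analysis was possible because each condition has 1 library, and for the same reason no replicate could be left out. Of 113 recomputed values 60 moved, 3 reversed and 50 stayed within the band set for them, which for 7 numbers of members was 1.5 times the reported number and not an error. The number of members was 384 at heights of 18 or more and 75 at 20 or more; 7 other rules gave 7256 to 12254. Scaling to reads in input regions gave siVRK1 over siControl ratios of 0.645 for pT120, 1.21 for ubK119 and 1.16 for input, and VRK1 over input of 2.95. Over input it gave 0.793 (siVRK1) and 1.42 (siControl) for pT120, 1.36 (siVRK1) and, reversed, 1.30 (siControl) for ubK119. With input regions of at most 100 input reads, an alternative chosen after seeing the data, the siRNA ratios were 0.749, 1.17 and 1.09, and VRK1 over input 3.16. Over input, pT120 was then 1.06 (siVRK1, reversed) and 1.54 (siControl), and ubK119 1.51 (siVRK1) and 1.40 (siControl, reversed). The share of a library's reads in all regions called in input DNA ran from 1.52 percent (siVRK1 pT120) to 2.77 percent (siVRK1 input).

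In members of 18 or more reads the pT120, ubK119 and input ratios were 0.416, 1.78 and 1.21, VRK1 over input 2.63, pT120 over input 0.411 (siVRK1) and 1.20 (siControl), median height 18 and median length 329 bp. With VRK1 counts at or above the height they were 0.442, 1.77, 1.20, 2.58, 0.428 and 1.16. Without windows of 20 or more members, pT120 was 0.446, ubK119 1.77, VRK1 over input 2.62, siVRK1 pT120 over input 0.426 and siControl ubK119 over input 0.790. Without other peaks within 1000 bp, VRK1 over input was 2.60, siVRK1 pT120 over input 0.429, ubK119 over input 1.16 (siVRK1) and 0.783 (siControl), and median length 210.0 bp. Without members that reached a minimum elsewhere, a filter on values the rule used, VRK1 over input was 2.59 and siVRK1 pT120 over input 0.445. Medians over regions gave 1.17 for input and, for ubK119 over input, 1.11 (siVRK1) and 0.786 (siControl).

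Shares of peaks in no other list depended on both thresholds. At 18 or more reads in every list they were 19.9% for VRK1, 18.5% and 0.938% for siVRK1 and siControl pT120, 73.4% and 53.0% for ubK119 and 27.8% and 6.47% for input. Within 1000 bp they were 41.4% for VRK1, 76.2% and 26.9% for pT120, 39.8% and 54.2% for ubK119 and 46.8% and 47.2% for input. The share on chromosome 14 was 31.7% and 65.4% under these rules. The cause of these changes was not tested.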
